A study of Mus musculus with 16 samples.

Results

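The anterior and posterior parts of mouse embryos lacking Fuz were compared by RNA sequencing at E10.5, mid-gestation in the mouse. The comparison uses 4 of the 16 libraries of the series, 2 of Head Fuz KO and 2 of Tail Fuz KO, chosen by their region and genotype labels. A Head is the part of the embryo anterior to the third branchial arches, and a Tail is the part caudal to the forelimbs, so the tissue between them is in neither. Head Fuz KO is set against Tail Fuz KO, and both parts of WT embryos (2 Head WT and 2 Tail WT libraries) show the same regional contrast with Fuz present. Embryos lacking both Fuz and Gpr161 (2 Head DKO and 2 Tail DKO libraries) are used for 1 further comparison. Embryos lacking Gpr161 alone (2 Head Gpr161 KO and 2 Tail Gpr161 KO libraries) enter the fit over all libraries and the checks of replicates. Their regional contrast is not described. The labels give no allele, strain, number of embryos per library or embryo of origin and name no treatment, so p-values measure the spread between these libraries, which may be technical.

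Fuz encodes an effector of the CPLANE complex, which is needed to assemble cilia and so to pass on Hedgehog signals, and mice without it have malformed heads, limbs and neural tubes. Regional identity along the body axis is carried by transcription factors. The forebrain and midbrain are marked by homeobox factors such as Otx2, Six3 and En2 and are free of Hox expression, while the Hox genes, numbered by paralog group, are switched on in nested domains from the hindbrain to the tail, with low groups reaching farthest forward. At the caudal tip the tail bud adds new spinal cord and somites under Wnt, FGF and the factors T, Tbx6, Msgn1 and Cdx.

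The 4 Fuz KO libraries held between 39736123 and 40795432 counts, against 39062489 to 53680317 over the series. Levels are CPM, read counts scaled to a library of 1000000 after normalisation by the trimmed mean of M values. Differences are Head minus Tail on the log2 scale with a standard error (SE) after the ± sign. For edgeR the SE was worked back from the test, as the size of the difference over the square root of the F statistic. It is therefore approximate, above all for genes with few counts in a region. For DESeq2 it is the one that the fit reports. A gene was called where its Benjamini-Hochberg adjusted p was under 0.05 in edgeR's quasi-likelihood test, fitted across 21284 genes and all libraries. Across genes, Pearson's r between both libraries of a group was 0.961 in Head Fuz KO and 0.966 in Tail Fuz KO, and 0.980 to 0.983 in the other groups. Both Fuz KO 1 libraries stood apart in 28 hypoxia and glycolysis genes. From the WT mean of the same region, these genes differed by a median log2 of 2.64 in Head Fuz KO 1 and 2.45 in Tail Fuz KO 1, and by 0.15 and 0.13 in the number 2 libraries of Head and Tail. Their share of mitochondrial counts was also low, at 0.647% in Head Fuz KO 1 and 0.933% in Tail Fuz KO 1, against 1.70% and 1.92% in the number 2 libraries of Head and Tail and 1.64% to 2.07% in WT. The part of either in the results below was not tested. All 4 Fuz KO libraries carried the Y-linked gene Ddx3y (50.9 to 79.7 CPM), which was at most 0.0457 CPM in the WT libraries.

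The sequences that follow belong to microRNAs that sit inside the Hox clusters, and they are shown because loci of both families were read in Tail and not in Head, apart from that of miR-196b, which was read in neither and is shown for its shared seed. Mature sequences are RefSeq's (GRCm38.p6), given 5′ to 3′ with the seed, bases 2 to 8, in capitals. The miR-196 family has 1 seed, and miR-196 is known in mice for pairing with Hoxb8 mRNA.
mmu-miR-196a-5p: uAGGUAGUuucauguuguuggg
mmu-miR-196b-5p: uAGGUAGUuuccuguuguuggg
The miR-10 family, encoded beside the Hox genes of paralog group 4, shares another seed.
mmu-miR-10a-5p: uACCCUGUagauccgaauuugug
mmu-miR-10b-5p: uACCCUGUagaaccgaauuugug
Mir196a-1 (mature miR-196a-5p at chr11:96265187-96265208, plus strand) had 0 and 0 counts in the Head Fuz KO libraries, against 143 and 150 counts in the Tail Fuz KO libraries. It was at least 99.3-fold lower in Head, taking the floor of 3 counts over the Head group (adjusted p = 0.000118). Mir10a (mature miR-10a-5p at chr11:96317186-96317208, plus strand) had 0 and 0 counts in Head, against 29 and 18 in Tail, and was at least 15.9-fold lower in Head (adjusted p = 0.00781). Mir196a-2 had 0 and 0 counts in Head and 4 and 0 in Tail, Mir10b had 0 and 0 in Head and 2 and 0 in Tail, and Mir196b had none in any of the 4 libraries. These last 3 were below the filter on low counts. The libraries were poly-A selected, so a count over a hairpin is of a longer transcript that crosses it, not of the mature microRNA. Floors and counting intervals here and below cover counting error alone.

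Fuz (ENSMUSG00000011658, chromosome 7) was measured first, as a check of the genotype. It was at 0.909 and 1.66 CPM in Head Fuz KO and 0.877 and 1.26 CPM in Tail Fuz KO, against 6.82 and 7.84 CPM in Head WT and 5.17 and 5.35 CPM in Tail WT. The Fuz KO libraries were below every WT library in both regions, and Head and Tail overlapped within Fuz KO (log2 difference 0.27 ± 0.39 SE, adjusted p = 0.811). Gpr161, the ciliary receptor removed in the DKO, was at 25.4 and 52.5 CPM in Head Fuz KO, against 24.3 and 42.7 CPM in Tail Fuz KO. It too overlapped between the regions and was lower in library 1 of each (log2 difference 0.22 ± 0.34, adjusted p = 0.826).

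Between the regions of Fuz KO embryos, 778 genes were higher in Head (3.66% of the 21284 tested) and 563 were lower in Head (2.65%), 1341 in all (6.30%). Of these, 1215 are annotated as protein coding, 1028 differed by at least 1 on the log2 scale and 344 by at least 3. The median log2 difference over all genes tested was 0.02. A bulk library cannot tell fewer cells of a type from less RNA per cell, and this holds for every difference below. The count depends on the spread taken from the other groups: with the 4 Fuz KO libraries fitted alone, 42 genes were higher and 65 lower in Head. It also depends on the library, as without Tail Fuz KO 1 there were 334 higher and 385 lower, without Head Fuz KO 2 there were 963 and 1238, and without both Fuz KO 1 libraries 353 and 340. With the replicate number as a block the counts were 1696 and 1398. Of 94 genes whose difference between the Fuz KO regions is described here, 83 were called, and 64 of those stayed called when each Fuz KO library was left out in turn.

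The Hox genes showed the region plainly. Of 39 Hox genes, 38 could be tested, and 34 were lower in Head Fuz KO and 0 higher, with a median log2 difference of -9.01 (-8.51 with the genes at 0 in Head set at their bound). Hoxd4 had 0 counts in all 16 libraries, Tail included, and is not interpreted. Summed over the 12 genes of paralog groups 1 to 4, expression was 44.9 and 19.0 CPM in Head, against 317 and 158 CPM in Tail. For the 11 genes of groups 5 to 8 it was 0.883 and 0.452 CPM in Head, against 491 and 374 CPM in Tail, and for the 16 genes of groups 9 to 13 it was 0.727 and 1.90 CPM in Head, against 851 and 664 CPM in Tail. All 11 tested genes of groups 5 to 8 were lower in Head, as were 15 of 16 of groups 9 to 13 and 8 of 11 of groups 1 to 4, against a background of 2.65%.

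**Figure D1:**
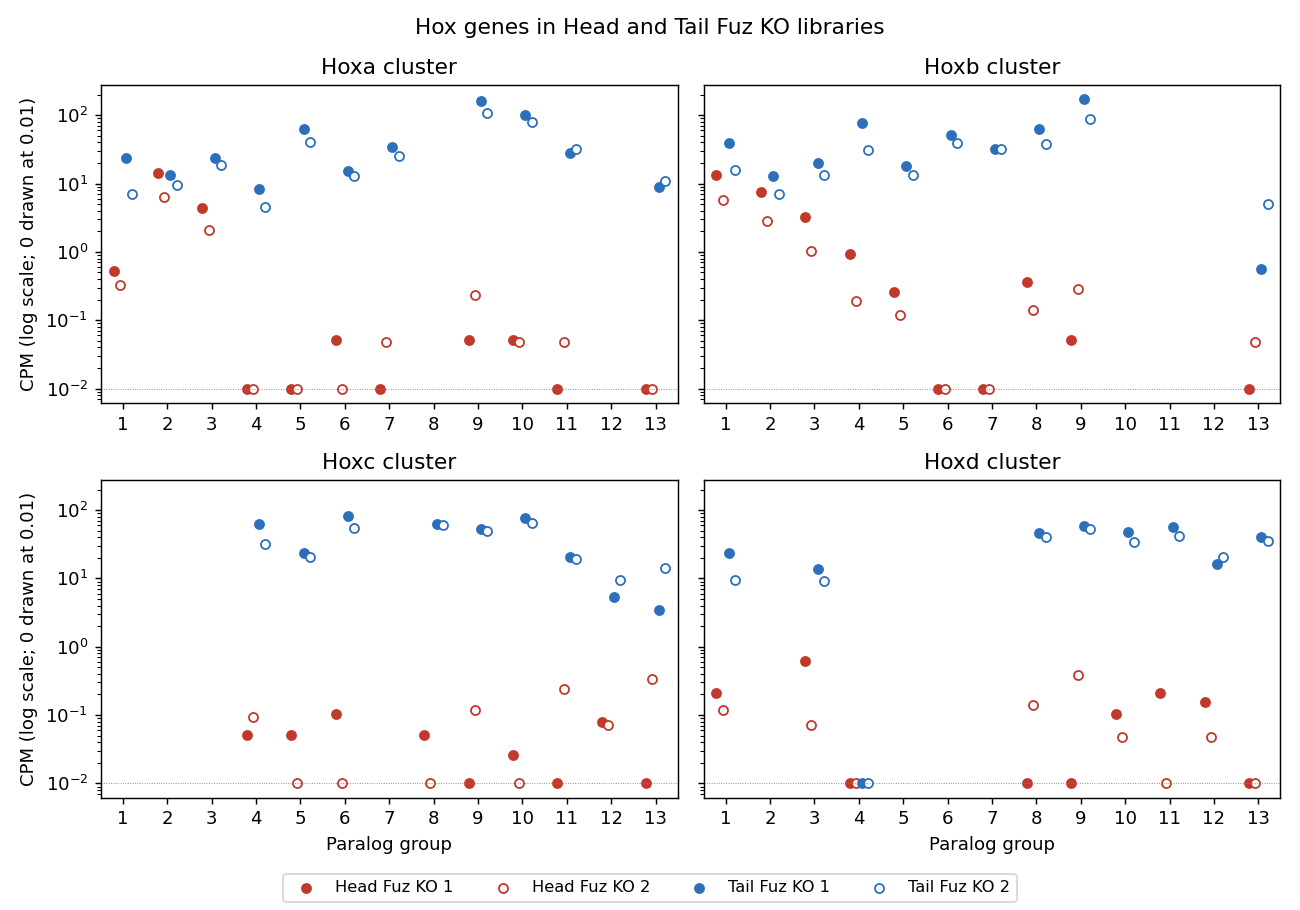
Expression of the Hox genes by cluster and paralog group in the 4 Fuz KO libraries, as CPM on a log axis with 0 drawn at 0.01; red marks Head and blue Tail, filled symbols library 1 and open symbols library 2. Both Head libraries lie above 1 CPM for Hoxa2 (14.1 and 6.42 CPM), Hoxa3, Hoxb1, Hoxb2 and Hoxb3 and below 1 CPM from group 4 on, while both Tail libraries lie above 5 CPM for every gene of groups 5 to 12.

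The Hox genes that were found in Head are those of the hindbrain and the branchial arches. Hoxa2, which patterns the second branchial arch and the hindbrain, was at 14.1 and 6.42 CPM in Head Fuz KO, against 13.2 and 9.48 CPM in Tail Fuz KO. The regions overlapped (log2 difference -0.15 ± 0.33, adjusted p = 0.892). Hoxb1, a gene of the fourth hindbrain segment, was at 13.48 and 5.83 CPM in Head, against 38.6 and 15.6 CPM in Tail. Hoxb2 was at 7.45 and 2.83 CPM in Head, against 13.0 and 7.14 CPM in Tail. For both the library 1 value was the higher in each region, and neither passed (adjusted p = 0.309 for Hoxb1 and 0.288 for Hoxb2), though both did with the replicate block (0.0381 and 0.0103). Hoxa3, which acts in the third arch, was at 4.36 and 2.07 CPM in Head, against 23.4 and 18.4 CPM in Tail, a difference without overlap (log2 -2.70 ± 0.37, adjusted p = 0.000655). Hoxb3 differed by about as much (3.19 and 1.05 CPM in Head, 20.3 and 13.6 CPM in Tail, log2 -2.999 ± 0.41, adjusted p = 0.00075). Hoxd3 was at 0.623 and 0.0714 CPM in Head, against 13.9 and 9.16 CPM in Tail, and its call (adjusted p = 0.0143) was lost without Tail Fuz KO 1 (adjusted p = 0.0715), without Head Fuz KO 2 (0.061) and with the replicate block (0.0597).

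From paralog group 4 on, Head reads were few or absent. Hoxa5 (ENSMUSG00000038253, chromosome 6) had no count in Head Fuz KO, against 63.0 and 39.9 CPM in Tail Fuz KO, which makes it at least 1375-fold lower in Head (adjusted p = 6.65e-06). Hoxb6 (51.5 and 39.5 CPM in Tail), Hoxb7 (32.1 and 31.7 CPM in Tail), Hoxd13 (39.8 and 35.0 CPM in Tail) and Hoxa13 (8.87 and 10.9 CPM in Tail) were also at 0 in both Head libraries, and were at least 1219-fold, 856-fold, 1003-fold and 266-fold lower there. Hoxc10 (ENSMUSG00000022484, chromosome 15), the gene with the lowest p, had 1 count in the Head libraries together (0.0260 CPM in Head Fuz KO 1 and none in the other), against 76.8 and 63.8 CPM in Tail. The ratio of Tail to Head was 5653 with a 95% counting interval of 1014 to 223304 (adjusted p = 3.39e-08). Hoxa9, of the lumbar and sacral axis, was at 0.0519 and 0.238 CPM in Head, against 163 and 107 CPM in Tail (log2 -9.80 ± 0.68, adjusted p = 1.77e-05).

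The most caudal genes parted the Tail libraries. Hoxb13 was at 0 and 0.0476 CPM in Head Fuz KO, against 0.567 and 5.04 CPM in Tail Fuz KO, and Hoxc13 at 0 and 0.333 CPM in Head, against 3.46 and 14.1 CPM in Tail. Both were lower in Tail Fuz KO 1 than in Tail Fuz KO 2. Hoxc13 passed (log2 -5.66 ± 1.11, adjusted p = 0.0133), though not without Head Fuz KO 1 (adjusted p = 0.0614), and Hoxb13 did not pass (adjusted p = 0.0623), except without Tail Fuz KO 1 (0.0339), with the replicate block (0.000161) and in DESeq2 (0.00805). Of the 34 Hox genes called, 29 were higher in Tail Fuz KO 1 than in Tail Fuz KO 2.

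Genes of the forebrain and eye lay on the other side. Of 32 members, all tested, 20 were higher in Head Fuz KO and 0 lower, against 3.66% of all genes higher, with a median log2 difference of 3.29. Without Tail Fuz KO 1, 13 were higher, and without Head Fuz KO 2, 17 were higher and 2 lower. Otx2 (ENSMUSG00000021848, chromosome 14), the homeobox factor of the forebrain and midbrain, was at 125 and 89.9 CPM in Head Fuz KO, against 0.0516 and 0.247 CPM in Tail Fuz KO. The regions were far apart (log2 9.44 ± 0.76, adjusted p = 0.000106), as they were for its relative Otx1, at 32.3 and 37.7 CPM in Head, against 0.722 and 0.272 CPM in Tail (log2 6.14 ± 0.60, adjusted p = 9.64e-05). Six3, a factor of the anterior forebrain and eye, was at 15.9 and 21.8 CPM in Head, against 0 and 0.148 CPM in Tail (log2 7.91 ± 0.79, adjusted p = 0.00011). The antisense gene Six3os1 was called beside Six3, and without a stated strand setting their reads cannot be told apart.

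The forebrain genes also parted the Head libraries. Of the 20 called members, 18 were lower in Head Fuz KO 1 than in Head Fuz KO 2. Nr2e1, the orphan nuclear receptor of the telencephalon, was at 9.32 and 46.3 CPM in Head, against 0 and 0.0494 CPM in Tail, and Fezf2, a factor of the anterior forebrain, at 3.25 and 11.7 CPM in Head, against 0 and 0.0494 CPM in Tail. The ratios of Head to Tail were 1134 (95% counting interval 314 to 9370) for Nr2e1 and 303 (83.4 to 2504) for Fezf2, with adjusted p of 0.00112 and 0.00131. Fezf1 had 3.95 and 21.001 CPM in Head, against 0 and 0.296 CPM in Tail (log2 6.35 ± 1.15, adjusted p = 0.00703), and missed the threshold without Tail Fuz KO 1 (adjusted p = 0.0562). Head Fuz KO 1 had a median log2 difference of -1.30 from the Head WT mean over the 32 genes, and Head Fuz KO 2 one of 0.04. Head Fuz KO 1 is also the library with the high hypoxia genes, whose part in these values was not tested.

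Midbrain and hindbrain genes were higher in Head as well, in 9 of 24 members, with 0 lower and a median log2 difference of 1.58. En2 (ENSMUSG00000039095, chromosome 5), the homeobox factor of the midbrain and cerebellar territory, was at 98.4 and 72.5 CPM in Head Fuz KO, against 0.619 and 0.0988 CPM in Tail Fuz KO (log2 7.90 ± 0.59, adjusted p = 1.85e-05). Pax5, of the midbrain and hindbrain boundary, was at 42.4 and 26.0 CPM in Head, against 0.774 and 0.296 CPM in Tail (log2 6.00 ± 0.67, adjusted p = 0.000284). Cnpy1, not on the list and a gene of the same boundary known from zebrafish as a modulator of FGF receptors, was at 149 and 72.6 CPM in Head, against 1.39 and 0.741 CPM in Tail (log2 6.70 ± 0.54, adjusted p = 3.3e-05). In all 3 the groups were well apart and Head Fuz KO 1 was the higher Head library, the reverse of the forebrain genes, and of the 9 called members 1 was lower in Head Fuz KO 1 than in Head Fuz KO 2. Dmbx1 and Tal2 of the midbrain followed the same order in Head (31.9 and 17.2 CPM for Dmbx1, 35.1 and 24.2 CPM for Tal2), with Tail at 0.103 and 0.346 CPM for Dmbx1 and 0.103 and 1.14 CPM for Tal2. The difference was 6.74 ± 0.85 for Dmbx1 and 5.56 ± 0.68 for Tal2 on the log2 scale, with adjusted p of 0.000667 and 0.000527.

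**Figure D2:**
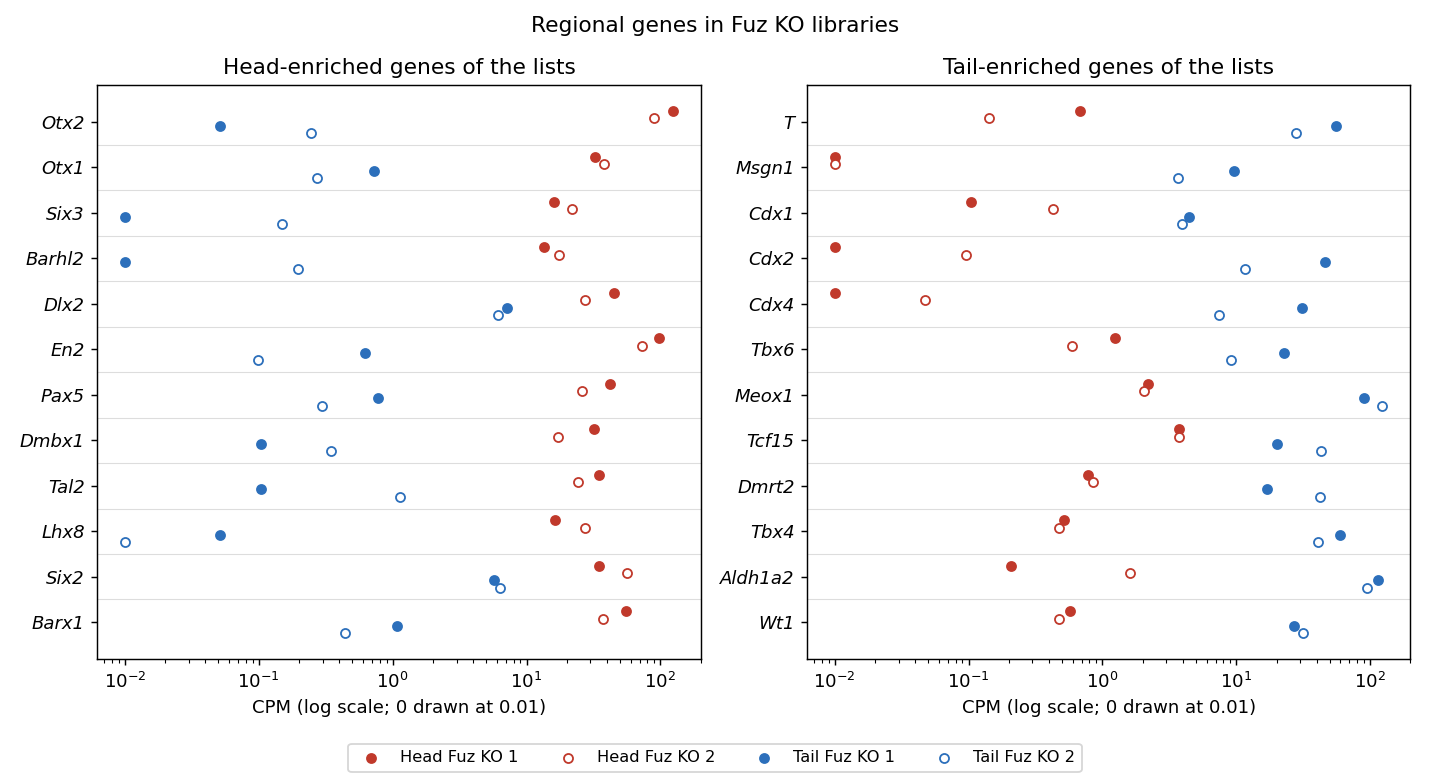
Expression of 24 genes of the regional lists in each Fuz KO library, as CPM on a log axis with 0 drawn at 0.01; the left panel has genes higher in Head and the right panel genes lower in Head, with red for Head, blue for Tail, filled for library 1 and open for library 2. For every gene drawn the 2 Head libraries lie on one side of the 2 Tail libraries, for instance Otx2 at 125 and 89.9 CPM in Head and 0.0516 and 0.247 CPM in Tail.

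Craniofacial genes were divided. Among 42 genes of the branchial arches and cranial mesenchyme, 7 were higher in Head and 6 lower, and the median log2 difference was -0.0024. Without Tail Fuz KO 1 there were 8 higher and 3 lower. Lhx8, a LIM-homeobox factor of the first arch and ventral forebrain, was at 16.3 and 27.3 CPM in Head Fuz KO, against 0.0516 and 0 CPM in Tail Fuz KO, a ratio of Head to Tail of 873 (95% counting interval 241 to 7217, adjusted p = 2.45e-05). Barx1, of arch and stomach mesenchyme, was at 55.8 and 37.4 CPM in Head, against 1.08 and 0.444 CPM in Tail (log2 5.93 ± 0.63, adjusted p = 0.000228). Six2, of cranial mesenchyme and nephron progenitors, was at 34.8 and 56.6 CPM in Head, against 5.67 and 6.37 CPM in Tail (log2 2.92 ± 0.29, adjusted p = 7.15e-05). The 6 on the other side are also active outside the head, and among them were Meis1, a Hox cofactor (67.8 and 55.2 CPM in Head, 155 and 147 CPM in Tail, log2 -1.29 ± 0.13, adjusted p = 6.88e-05), and Hand2 of the heart, limb and arches (6.15 and 13.4 CPM in Head, 42.9 and 36.2 CPM in Tail, log2 -2.01 ± 0.39, adjusted p = 0.0085). The Hand2 call was lost without Head Fuz KO 1 (adjusted p = 0.0608), without Tail Fuz KO 1 (0.0674) and with the replicate block (0.0912).

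Of 23 genes of the cranial placodes and inner ear, 21 were tested, 9 were higher in Head and 2 lower, with a median log2 difference of 2.29. There were 5 higher and 2 lower without Tail Fuz KO 1, and 5 and 1, with a median of 1.21, without both Fuz KO 1 libraries. Leaving out Head Fuz KO 1 or Tail Fuz KO 2 gave 6 and 1. Oc90, of the otic vesicle, was at 2.86 and 3.88 CPM in Head Fuz KO, against 0 and 0.0494 CPM in Tail Fuz KO, a ratio of Head to Tail of 134 (95% counting interval 36.8 to 1115, adjusted p = 0.00409). Pitx1, of the oral ectoderm and the hindlimb, was lower in Head, at 35.5 and 36.9 CPM, against 133 and 131 CPM in Tail (log2 -1.86 ± 0.24, adjusted p = 0.000593). Without both Fuz KO 1 libraries Oc90 was at an adjusted p of 0.0822 and Pitx1 at 0.0648. In the pharyngeal endoderm list 3 of 11 tested genes were higher in Head and 0 lower. Foxe1 of the thyroid primordium (6.91 and 3.23 CPM in Head, 0.309 and 0.0494 CPM in Tail, log2 4.81 ± 0.69, adjusted p = 0.00118) was the firmest. Nkx2-1 (adjusted p = 0.00901) and Tbx1 (adjusted p = 0.0255) lost their calls without Tail Fuz KO 1 (0.0862 and 0.167) or Tail Fuz KO 2 (0.0891 and 0.165), and Tbx1 also without Head Fuz KO 1 (0.165) and with the replicate block (0.0668).

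Tail bud genes that were called lay on the Tail side. Of 26 members, 11 were lower in Head Fuz KO and 0 higher, with a median log2 difference of -0.96. Msgn1, which drives presomitic mesoderm, had no count in either Head library and is shown with its promoter. Matches per promoter were counted only for Msgn1, T, Otx2, Six3, Hoxa10 and Cdx2, and among these Msgn1 had the most, at 2. The promoter of T had 1, that of Otx2 had 1 at 1 of its start sites, and those of Six3, Hoxa10 and Cdx2 had 0. The 250 bases upstream of its start site (RefSeq, GRCm38.p6, chr12:11208949-11209198, minus strand, given 5′ to 3′) carry in capitals a match to CTTTGAT, a TCF/LEF motif, starting at position -203 from the start site, and a match to TTTATG, a Cdx motif, at position -85, both on the opposite strand of the gene.
Msgn1 promoter: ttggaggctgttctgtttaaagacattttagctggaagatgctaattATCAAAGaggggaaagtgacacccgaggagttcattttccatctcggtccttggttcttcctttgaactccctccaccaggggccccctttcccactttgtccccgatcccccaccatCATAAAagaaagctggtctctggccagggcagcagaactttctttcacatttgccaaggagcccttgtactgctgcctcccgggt
Searched on both strands from 250 bases before to 50 after the start, TTTATG was in the promoters of 51 of 371 genes lower in Head (13.7%), 49 of 558 genes higher in Head (8.78%), 8.88% of tested genes and 13.6% of all genes with a promoter sequence. CTTTGAT was in 3.77% of promoters of genes lower in Head, 3.05% of those higher in Head, 3.23% of tested and 4.29% of all genes. Also searched were TAATCC, a bicoid-type homeodomain motif, and TCACACC, a T-box motif. In the same order, TAATCC was in 7.28%, 6.99%, 7.13% and 8.14%, and TCACACC in 4.31%, 4.3%, 4.2% and 4.6%. A match is a match of letters and not a bound site.

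Msgn1 (ENSMUSG00000047002) was at 0 CPM in both Head Fuz KO libraries, against 9.67 and 3.65 CPM in Tail Fuz KO, and was at least 177-fold lower in Head (adjusted p = 0.000415). T, the T-box factor of the notochord and tail bud, was at 0.675 and 0.143 CPM in Head, against 55.6 and 27.7 CPM in Tail (log2 -6.68 ± 0.68, adjusted p = 0.000185). Tbx6, of the presomitic mesoderm, was at 1.25 and 0.595 CPM in Head, against 22.6 and 9.09 CPM in Tail (log2 -4.10 ± 0.59, adjusted p = 0.00115). Each was highest in Tail Fuz KO 1, as were 10 of the 11 called members, and no library overlapped between the regions. Of the Cdx factors, which govern caudal extension and Hox expression, a pair also stood far apart between the Tail libraries. Cdx2 was at 0 and 0.0951 CPM in Head, against 45.7 and 11.7 CPM in Tail (log2 -9.10 ± 1.39, adjusted p = 0.00437). Cdx4 was at 0 and 0.0476 CPM in Head, against 30.7 and 7.43 CPM in Tail, a ratio of Tail to Head of 758 (95% counting interval 210 to 6266, adjusted p = 0.00106). Cdx1 was at 0.104 and 0.428 CPM in Head, against 4.44 and 3.90 CPM in Tail (log2 -3.94 ± 0.52, adjusted p = 0.000562). The Cdx2 call was lost without Head Fuz KO 1 (adjusted p = 0.0606) and without both Fuz KO 1 libraries (0.112).

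Somite and muscle genes that were called were mostly lower in Head too. Of 23 segmentation and somite genes, 8 were lower in Head and 1 higher (5 and 0 without Head Fuz KO 1 or without Tail Fuz KO 2), and 3 of the 8 were higher in Tail Fuz KO 1 than in Tail Fuz KO 2. Meox1 (ENSMUSG00000001493, chromosome 11), a homeobox factor of somites, was at 2.18 and 2.05 CPM in Head Fuz KO, against 90.2 and 122 CPM in Tail Fuz KO (log2 -5.65 ± 0.29, adjusted p = 2.97e-07). Tcf15, needed to make somites epithelial, was at 3.74 and 3.71 CPM in Head, against 20.3 and 42.6 CPM in Tail (log2 -3.08 ± 0.37, adjusted p = 0.000284). Hes7, of the segmentation clock, was at 0.467 and 0.166 CPM in Head, against 7.81 and 4.20 CPM in Tail (log2 -4.24 ± 0.63, adjusted p = 0.00118). Of 18 dermomyotome and skeletal muscle genes, 6 were lower in Head and 1 higher, with a median log2 difference of -2.26. Dmrt2, of the dermomyotome, was at 0.779 and 0.856 CPM in Head, against 17.0 and 41.9 CPM in Tail (log2 -5.16 ± 0.47, adjusted p = 3.73e-05). Myf5, the first myogenic factor of the somite, was at 0.467 and 0.0476 CPM in Head, against 2.76 and 9.85 CPM in Tail (log2 -4.63 ± 0.78, adjusted p = 0.0036). Of the 6 called muscle genes none was higher in Tail Fuz KO 1 than in Tail Fuz KO 2, and against the Tail WT mean the list had a median log2 difference of -2.48 in Tail Fuz KO 1 and -0.20 in Tail Fuz KO 2. Tail Fuz KO 1 is also a library with high hypoxia genes, whose part in this was not tested, and without both Fuz KO 1 libraries 9 of the muscle genes were lower in Head and 0 higher.

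Of 16 sclerotome and cartilage genes, 3 were higher in Head, all of them collagens, and 1 lower (2 and 1 without Tail Fuz KO 1). Col2a1, the main collagen of early cartilage and notochord, was at 559 and 421 CPM in Head Fuz KO, against 134 and 195 CPM in Tail Fuz KO (log2 1.58 ± 0.19, adjusted p = 0.000335). In the limb list 5 of 20 genes were lower in Head and 1 higher (3 and 0 without both Fuz KO 1 libraries). Tbx4 (ENSMUSG00000000094, chromosome 11), the T-box factor of the hindlimb, was at 0.519 and 0.476 CPM in Head, against 59.2 and 41.1 CPM in Tail (log2 -6.65 ± 0.32, adjusted p = 1.22e-07). Grem1, the BMP antagonist of the limb bud, was at 3.43 and 1.95 CPM in Head, against 29.5 and 18.5 CPM in Tail (log2 -3.16 ± 0.31, adjusted p = 6.88e-05). Hoxd13 counts under both its lists. Of 19 intermediate mesoderm genes, 5 were lower in Head (3 without both Fuz KO 1 libraries) and 2 higher (Six2, named above, and Eya1). Wt1, of the nephrogenic and coelomic mesoderm, was at 0.571 and 0.476 CPM in Head, against 27.0 and 31.5 CPM in Tail (log2 -5.80 ± 0.88, adjusted p = 0.00295), and lost its call without both Fuz KO 1 libraries (0.114). In the hindgut and trunk endoderm list 4 of 22 tested genes were lower in Head and 1 higher (1 and 0 without both Fuz KO 1 libraries), and in the liver list 1 of 11, Afp, which had no count in Head and was at 1.65 and 0.494 CPM in Tail, at least 28.5-fold lower in Head (adjusted p = 0.0119, and 0.0651 without Tail Fuz KO 1 and 0.0746 without Head Fuz KO 1).

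Genes shared by neural tissue of both regions were called on the Head side. Of 22 neural progenitor genes, 13 were higher in Head Fuz KO and 0 lower, with a median log2 difference of 1.22. Sox21, a SoxB factor of progenitors, was at 37.4 and 51.5 CPM in Head, against 2.89 and 4.59 CPM in Tail (log2 3.57 ± 0.47, adjusted p = 0.000959). Msi1, an RNA-binding protein of neural stem cells, was at 275 and 205 CPM in Head, against 106 and 99.5 CPM in Tail (log2 1.22 ± 0.16, adjusted p = 0.000524). Of 21 neuronal differentiation genes, 7 were higher in Head and 0 lower, with a median of 2.36. Gap43, of growing axons, was at 86.0 and 89.7 CPM in Head, against 32.7 and 33.7 CPM in Tail (log2 1.40 ± 0.17, adjusted p = 0.000318). Elavl3, an RNA-binding protein of new neurons, was at 45.4 and 61.2 CPM in Head, against 4.26 and 10.8 CPM in Tail (log2 2.83 ± 0.67, adjusted p = 0.0349), and lost its call without any 1 of the Fuz KO libraries (adjusted p = 0.0659 to 0.256) and with the replicate block (0.0501). Both counts depended on single libraries: without both Fuz KO 1 libraries 2 progenitor genes and 1 neuronal gene were called (Sox21 at 0.0624), and without Tail Fuz KO 1 there were 3 and 1. Without Head Fuz KO 1 there were 6 and 3, without Head Fuz KO 2 also 6 and 3, and without Tail Fuz KO 2 there were 8 and 5. Against the Tail WT mean the neuronal genes had a median log2 difference of -2.30 in Tail Fuz KO 1 and -0.17 in Tail Fuz KO 2. The Tail WT libraries were themselves far apart, with the neuronal genes summing to 219 CPM in Tail WT 1 and 845 CPM in Tail WT 2. The sums were 111 CPM in Tail Fuz KO 1 and 370 CPM in Tail Fuz KO 2, so library 1 was the lower in both genotypes.

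Of 33 spinal cord interneuron and motor neuron genes, 8 were higher in Head and 3 lower. There were 5 and 3 without Head Fuz KO 1, 4 and 3 without Tail Fuz KO 1, and 4 and 2 without both. The 8 include genes that also mark brain neurons, such as Barhl2 (13.4 and 17.5 CPM in Head Fuz KO, 0 and 0.198 CPM in Tail Fuz KO, log2 7.22 ± 0.80, adjusted p = 0.000309). The 3 lower in Head were Mnx1, Evx1 and Sim1, of motor neurons, V0 interneurons and V3 interneurons. Mnx1 is also on the tail bud list and Sim1 on the muscle and intermediate mesoderm lists, so these calls cannot be assigned to neurons. Evx1, also of the tail bud, was at 0.987 and 1.38 CPM in Head, against 18.6 and 6.22 CPM in Tail (log2 -3.38 ± 0.46, adjusted p = 0.000677). Of 21 floor plate and ventral neural tube genes, 4 were higher in Head and 0 lower. Of these 4, 3, among them Dbx1 (63.1 and 56.3 CPM in Head, 1.96 and 6.59 CPM in Tail, adjusted p = 0.0205), were lost without Tail Fuz KO 1 (0.169 for Dbx1), and 1 gene of the list was called there and also without Head Fuz KO 1, against 2 without Tail Fuz KO 2. Of 21 neural crest and glial genes, 5 were higher in Head and 2 lower, but 2 and 2 without Head Fuz KO 1, and 1 and 1 without Tail Fuz KO 1 or without both Fuz KO 1 libraries. The lowest p was that of Gata2 (23.1 and 17.8 CPM in Head, 9.57 and 8.00 CPM in Tail, log2 1.22 ± 0.20, adjusted p = 0.00228). No pigment cell gene of 11 tested was called in Fuz KO by edgeR. Of the 11, 3 had an unadjusted p under 0.05, against 18.0% of all genes in either direction, and 2 were called by DESeq2, against 9.73% of all genes. In WT, 4 were higher in Head, against 2.02% of all genes. In the interaction with WT, 3 of the 11 were negative at an unadjusted p under 0.05, against 1.07% of all genes, and none passed after adjustment.

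**Figure D3:**
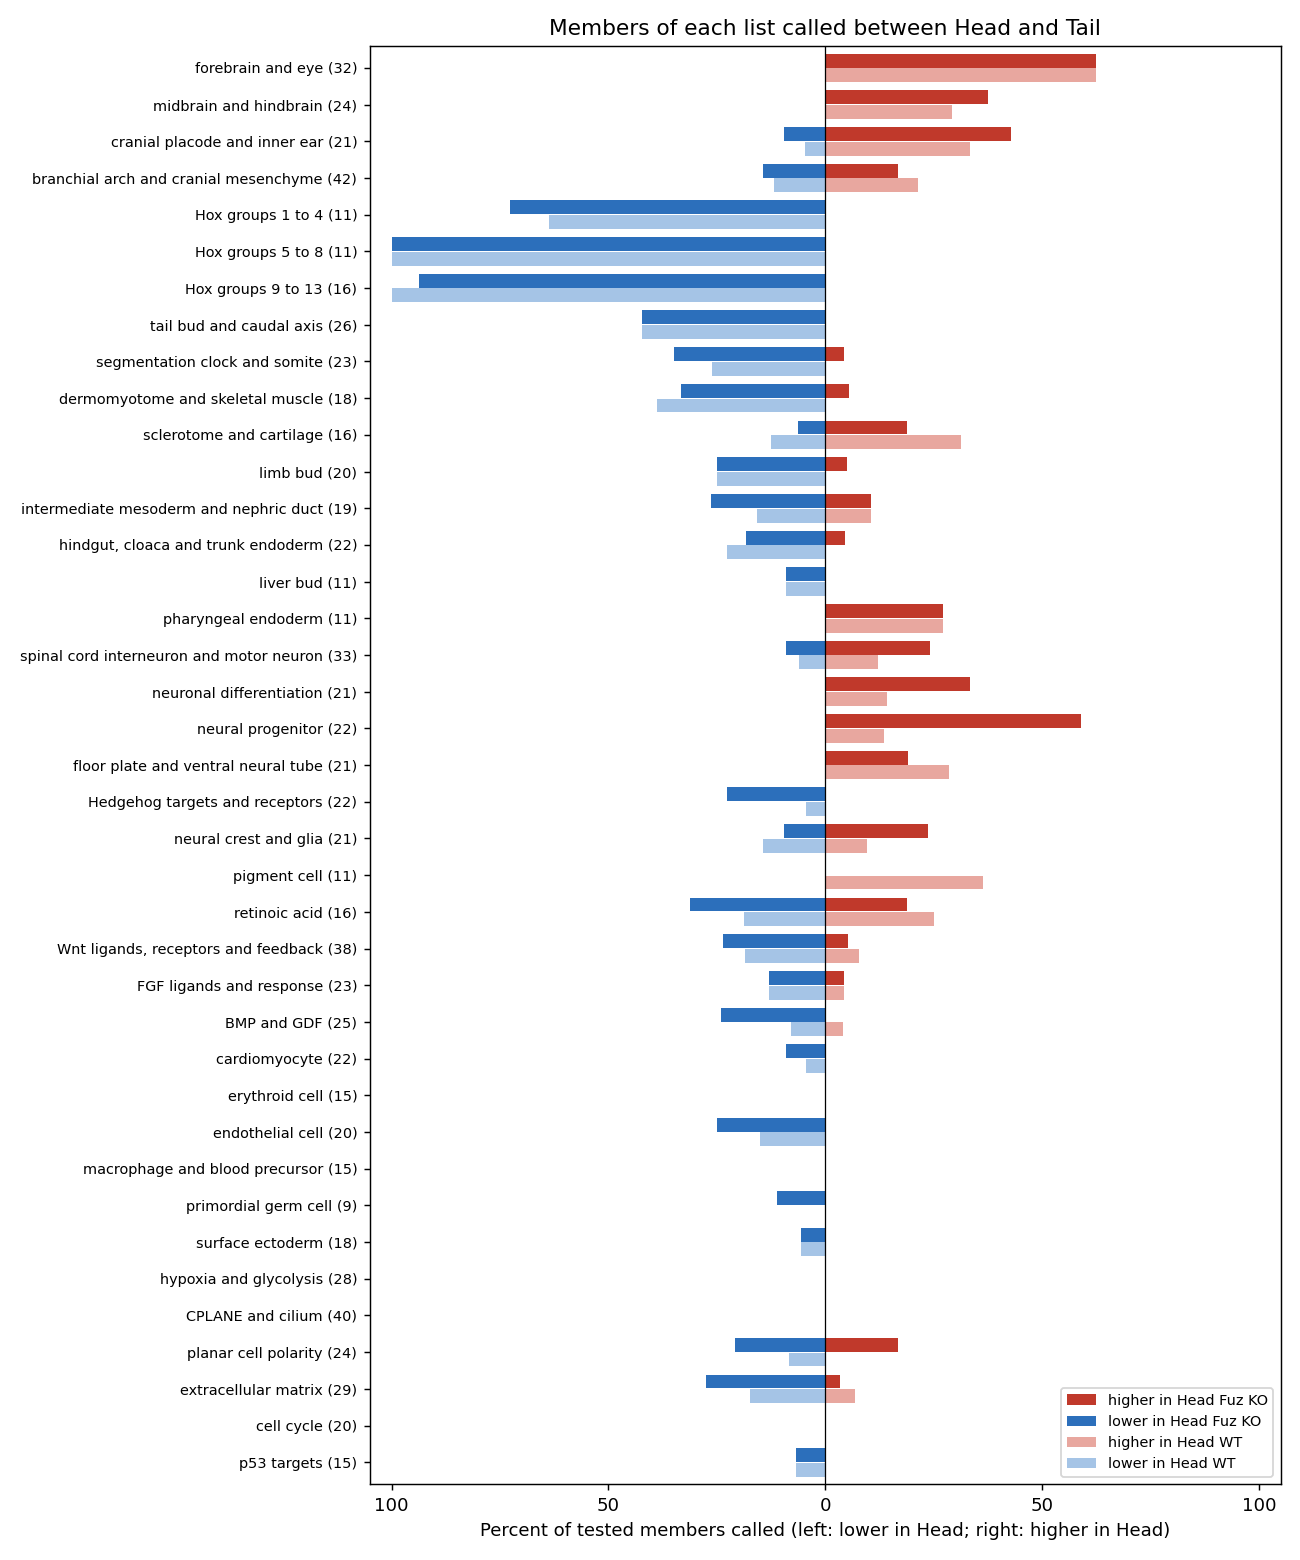
Share of tested members called between Head and Tail in each gene list, in percent, drawn to the right where higher in Head and to the left where lower in Head, with the number tested in brackets; dark bars are Fuz KO and pale bars WT, red to the right and blue to the left. The Hox bars fill the left side (11 of 11 in groups 5 to 8), the forebrain bar the right (20 of 32), and the hypoxia, cilium and cell cycle lists have no bar.

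Hedgehog genes that were called were lower in Head. Of 22 targets and receptors, 5 were lower in Head Fuz KO and 0 higher, against 2.65% of all genes lower, and the median log2 difference was -0.19. With the replicate block 7 were lower and 1 was higher, beside 1398 lower and 1696 higher of all 21284 genes. Gli1 (ENSMUSG00000025407, chromosome 10), the transcription factor that is itself a target, was at 14.6 and 11.9 CPM in Head, against 28.3 and 20.0 CPM in Tail, without overlap (log2 -0.87 ± 0.19, adjusted p = 0.0133). Hhip, which binds and restrains the ligand, was at 5.11 and 2.81 CPM in Head, against 9.18 and 10.2 CPM in Tail (log2 -1.30 ± 0.34, adjusted p = 0.0429). Foxf1, a forkhead target in gut and lateral mesoderm, was at 1.92 and 3.78 CPM in Head, against 25.9 and 11.5 CPM in Tail (log2 -2.71 ± 0.53, adjusted p = 0.0105). Gas1, a co-receptor, was at 118 and 157 CPM in Head, against 206 and 266 CPM in Tail (log2 -0.78 ± 0.16, adjusted p = 0.0111), and the fifth was Ihh, a ligand at 0.156 and 0.238 CPM in Head, against 2.30 and 1.04 CPM in Tail (log2 -3.06 ± 0.66, adjusted p = 0.0135). The receptor and target Ptch1 was at 135 and 97.6 CPM in Head, against 157 and 101 CPM in Tail, with overlap (log2 -0.15 ± 0.26, adjusted p = 0.842). Shh (ENSMUSG00000002633, chromosome 5), the ligand of the floor plate and notochord, was at 2.86 and 6.59 CPM in Head, against 7.14 and 8.59 CPM in Tail. Its Head libraries were both below its Tail libraries, but the difference did not pass (log2 -0.73 ± 0.32, adjusted p = 0.253), except without Head Fuz KO 2 (adjusted p = 0.00747), without the filter on low counts (0.00931) and with the replicate block (0.0283). Without Tail Fuz KO 1 the calls of Gli1 (adjusted p = 0.141), Hhip (0.125), Foxf1 (0.094) and Ihh (0.116) were lost, without Head Fuz KO 1 those of Foxf1 (0.119), Gas1 (0.0723) and Ihh (0.0842), without Tail Fuz KO 2 those of Hhip (0.138) and Gas1 (0.0792), and without Head Fuz KO 2 that of Hhip (0.157). With the replicate block Foxf1 was at 0.0901, and without both Fuz KO 1 libraries 1 of the 5 was called.

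**Figure D4:**
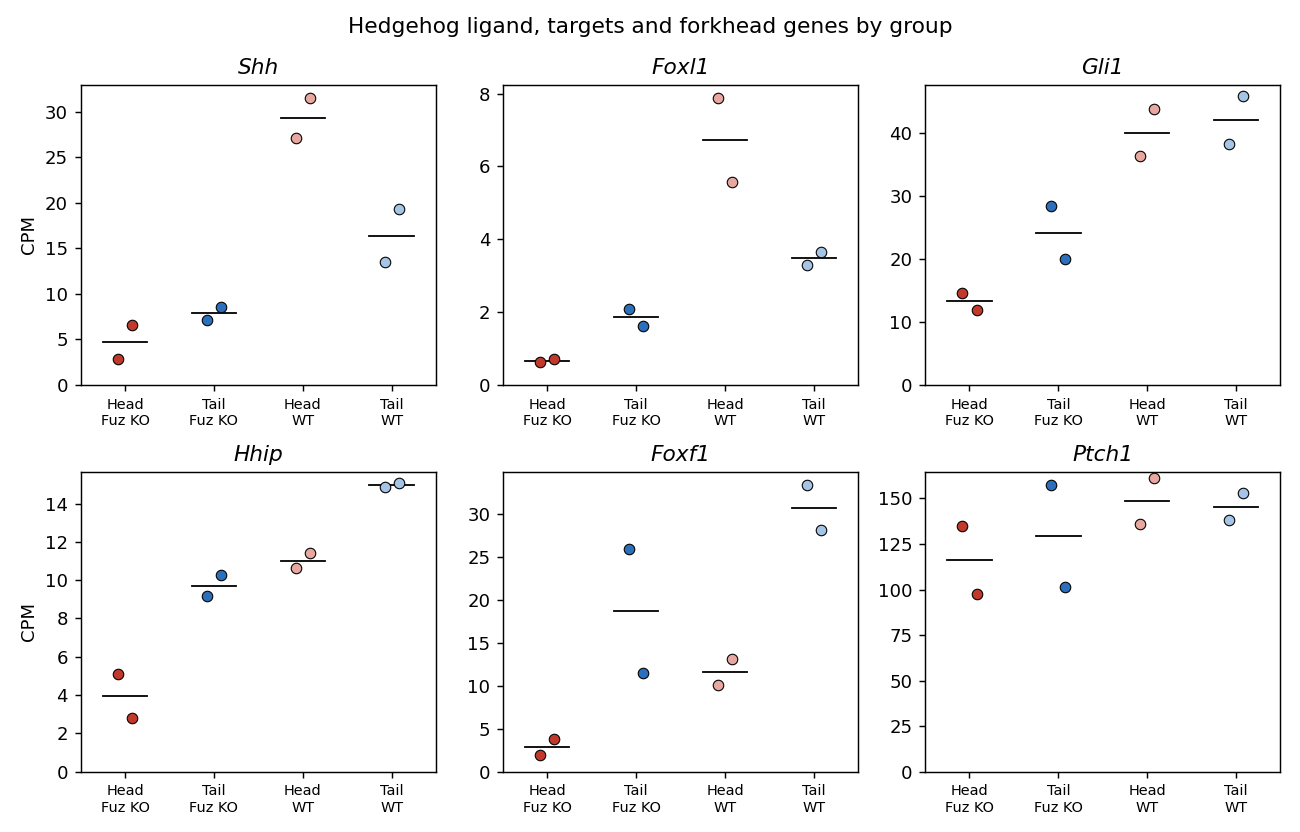
Expression of 6 Hedgehog pathway and forkhead genes in CPM on linear axes from 0, with 1 point for each library and a line at the mean of the 2, for Head Fuz KO, Tail Fuz KO, Head WT and Tail WT from left to right. Shh and Foxl1 are lower in Head than in Tail in Fuz KO and higher in Head than in Tail in WT, while Ptch1 shows little regional difference in either.

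Ligands and enzymes of other patterning pathways were regional as well. Aldh1a2, which makes retinoic acid in trunk mesoderm, was at 0.208 and 1.62 CPM in Head Fuz KO, against 115 and 94.4 CPM in Tail Fuz KO (log2 -6.81 ± 0.56, adjusted p = 6.74e-05). Cyp26c1, which breaks retinoic acid down in the head, was at 51.4 and 19.4 CPM in Head, against 2.01 and 0.321 CPM in Tail (log2 4.93 ± 0.78, adjusted p = 0.00387). Rarb, a receptor induced by it, was at 9.01 and 9.49 CPM in Head, against 37.5 and 23.3 CPM in Tail (log2 -1.72 ± 0.25, adjusted p = 0.00117). In all, 3 of 16 retinoic acid genes were higher in Head and 5 lower. Of 38 Wnt genes, 2 were higher in Head and 9 lower. Wnt8b, a forebrain ligand, was at 9.30 and 10.2 CPM in Head, against 0.0774 and 0.543 CPM in Tail (log2 4.95 ± 0.66, adjusted p = 0.000717). Wnt2, of lateral mesoderm, was at 1.04 and 0.143 CPM in Head, against 29.4 and 36.9 CPM in Tail (log2 -5.83 ± 0.85, adjusted p = 0.00232). Tcf7, a nuclear effector and target, was at 29.4 and 24.5 CPM in Head, against 59.1 and 54.2 CPM in Tail (log2 -1.07 ± 0.14, adjusted p = 0.000506). Of 25 tested BMP and GDF genes, 6 were lower in Head and 0 higher, with Bambi, a decoy receptor, at 28.9 and 25.4 CPM in Head, against 69.4 and 50.9 CPM in Tail (log2 -1.15 ± 0.17, adjusted p = 0.00102). Tgfb2, a TGF-beta ligand on the same list, was at 6.31 and 10.54 CPM in Head, against 23.6 and 31.9 CPM in Tail (log2 -1.72 ± 0.22, adjusted p = 0.000476). Of 23 FGF genes, 1 was higher and 3 were lower in Head, among those 3 Fgfr4 of myogenic and endodermal cells (0.156 and 0.476 CPM in Head, 4.10 and 3.56 CPM in Tail, log2 -3.58 ± 0.57, adjusted p = 0.00212).

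In the machinery to which Fuz belongs, none of 40 CPLANE and cilium genes passed in edgeR, where 6 had an unadjusted p under 0.05 (18.0% of all genes did). In DESeq2 1 passed, and with the replicate block 3 were higher and 1 was lower in Head, beside 1696 higher and 1398 lower of all 21284 genes. Their median log2 difference was 0.04, and the differences ran from -0.38 to 0.52. The largest, of Ift27, an intraflagellar transport subunit, was 0.52 ± 0.17 (33.8 and 29.3 CPM in Head Fuz KO, 18.5 and 25.4 CPM in Tail Fuz KO, adjusted p = 0.104), and it passed with the replicate block (0.025) and without Tail Fuz KO 2 (0.0385). Of 24 planar cell polarity genes, 4 were higher in Head and 5 lower. Daam2, a formin downstream of Dishevelled, was at 26.0 and 22.7 CPM in Head, against 75.0 and 57.9 CPM in Tail (log2 -1.45 ± 0.14, adjusted p = 6.88e-05). Prickle1, a core polarity protein, was at 21.7 and 22.6 CPM in Head, against 87.8 and 46.6 CPM in Tail (log2 -1.60 ± 0.24, adjusted p = 0.00126). Celsr2, an atypical cadherin of neural epithelia, was at 127 and 123 CPM in Head, against 22.5 and 32.9 CPM in Tail (log2 2.18 ± 0.37, adjusted p = 0.0047), and missed the threshold without Tail Fuz KO 1 (adjusted p = 0.0809), where 2 of the 24 were lower in Head and 0 higher. Without Head Fuz KO 2, 3 were lower and 3 higher.

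Markers of other cell types were given for what the dissection could have carried along. Cardiomyocyte markers summed to 20.6 and 9.92 CPM over 22 genes in Head Fuz KO, against 26.0 and 77.3 CPM in Tail Fuz KO, and 2 of them, Tbx20 and Tnni1, were lower in Head. Tbx20 missed the threshold without both Fuz KO 1 libraries (adjusted p = 0.0503), and Tnni1 missed it without any 1 of the Fuz KO libraries (0.0649 to 0.161) and with the replicate block (0.113). Erythroid markers (0 of 15 called, summing to 4376 and 5487 CPM in Head, 6985 and 7828 CPM in Tail) and macrophage and blood precursor markers (0 of 15 called, 62.8 and 105 CPM in Head, 59.4 and 75.3 CPM in Tail) did not pass in edgeR, with 0 erythroid and 1 macrophage gene at an unadjusted p under 0.05 and none passing in DESeq2. Of all genes, 6.30% were called in edgeR, 18.0% had an unadjusted p under 0.05 there and 9.73% were called in DESeq2. With so few called over all genes, 0 of 15 called is no result about either list. With the replicate block, 2 erythroid genes were lower in Head and 3 macrophage genes higher. Of all 21284 genes, the block called 1696 higher in Head and 1398 lower. Of 20 endothelial markers, 5 were lower in Head and 0 higher (2 without both Fuz KO 1 libraries, 10 with the replicate block), with a median log2 difference of -0.57, among them Erg, an endothelial transcription factor (8.83 and 7.80 CPM in Head, 25.1 and 16.9 CPM in Tail, log2 -1.34 ± 0.19, adjusted p = 0.00105). No cell cycle gene of 20 and no hypoxia gene of 28 was called between the regions by edgeR (6.30% of all genes) or DESeq2 (9.73%). In edgeR 3 and 0 had an unadjusted p under 0.05, against 18.0% of all genes. The median log2 differences were -0.04 and 0.11. With the replicate block, 3 cell cycle genes were higher in Head and 0 lower, and 2 hypoxia genes were higher and 4 lower, beside 1696 higher and 1398 lower of all 21284 genes. Among hypoxia genes of at least 5 CPM in a group, the largest regional difference was that of Car9, a carbonic anhydrase, at 11.2 and 0.856 CPM in Head and 3.97 and 1.26 CPM in Tail (log2 1.20 ± 1.14, adjusted p = 0.679), with library 1 above library 2 in both regions. Of 29 extracellular matrix genes 1 was higher in Head and 8 were lower (1 and 5 without Head Fuz KO 1, and 1 and 4 without Tail Fuz KO 2 or without both Fuz KO 1 libraries). In the p53 target (15 tested), primordial germ cell (9) and surface ectoderm (18) lists 1 gene each was lower and 0 higher, which with 2.65% of all genes lower is no result about these lists.

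The same contrast in WT embryos called 431 genes higher in Head (2.02% of those tested) and 371 lower (1.74%), 802 in all (3.77%). Of these, 351 higher in Head and 311 lower in Head were called in Fuz KO as well. The shared genes are 45.1% of the Fuz KO calls and 81.4% of the WT calls on the Head side, and 55.2% of the Fuz KO calls and 83.8% of the WT calls on the Tail side. No gene was called in opposite directions. The WT counts rest on single libraries, with 135 higher and 208 lower in Head where Tail WT 1 was left out, 164 and 144 where Head WT 1 was, and 182 and 162 where Head WT 2 was. With Tail WT 2 left out they were 395 and 249, and with the replicate block 1100 and 907. Of the genes called in Fuz KO, 774 of 778 on the Head side and 560 of 563 on the Tail side had the same sign in WT. Over the 1481 genes called in either genotype, the median size of the log2 difference was 1.67 in Fuz KO and 1.34 in WT, and across these genes, chosen for being called, Pearson's r between the differences was 0.915. Across all genes tested it was 0.693, and both are descriptions since genes are not independent. The forebrain list had 20 of 32 members higher in Head in both genotypes (median log2 3.29 in Fuz KO, 3.35 in WT). Gene by gene, its differences in Fuz KO less those in WT had a median of -0.97. Of the 32, 20 were below 0, as were 9990 of all 21284 genes. At an unadjusted p under 0.05 in the interaction, 4 were negative and 1 was positive, against 1.07% and 1.05% of all genes. Measured from the Head WT mean, the list's median was -1.30 for library 1 of the Fuz KO Heads and 0.04 for library 2. How far library 1 sets the interaction median was not tested. Other lists leaned further to 1 side in the interaction, so the lean is not particular to the forebrain list. All 21 neuronal differentiation genes and 20 of 22 neural progenitor genes were above 0, as were 11293 of all 21284 genes. All 15 erythroid genes and 25 of 29 extracellular matrix genes were below 0. Genes of a list are not independent, and these leans were not tested. The Hox genes gave 34 of 38 lower in Head in both (median -9.01 in Fuz KO, -8.69 in WT). Among neural progenitors 13 of 22 were higher in Head in Fuz KO and 3 of 22 in WT (medians 1.22 and 0.76), where the background was 3.66% in Fuz KO and 2.02% in WT. Among Hedgehog genes 5 of 22 were lower in Head in Fuz KO and 1 of 22 in WT (medians -0.19 and -0.07), where it was 2.65% in Fuz KO and 1.74% in WT. Both of these Fuz KO counts fell without both Fuz KO 1 libraries. That fit leaves 1 library in each Fuz KO region, so its counts are not like the WT counts given here. The median log2 differences in Fuz KO were then 1.04 for progenitors and -0.34 for Hedgehog genes. The differences in counts between the genotypes were not tested.

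**Figure D5:**
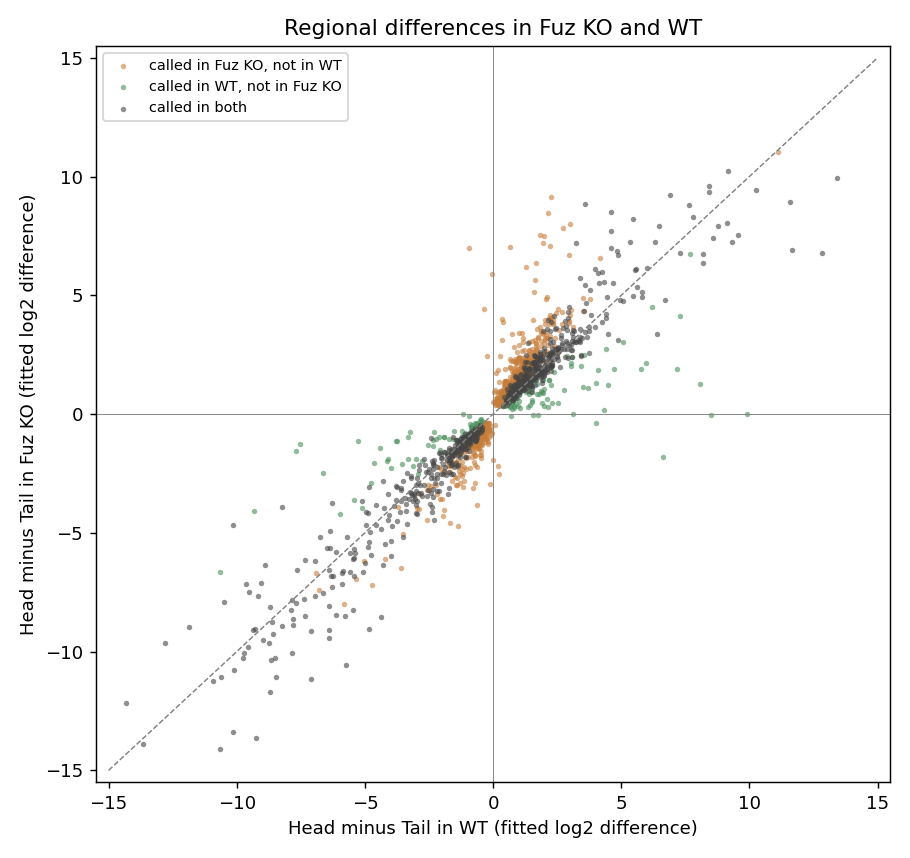
Fitted log2 difference between Head and Tail in Fuz KO (vertical) against that in WT (horizontal) for the 1481 genes called in either genotype; grey points were called in both, orange ones in Fuz KO and not in WT, and green ones in WT and not in Fuz KO, with the dashed line marking equal values. Most points follow the line in both quadrants (r = 0.915 over these called genes, 0.693 over all genes tested); the outermost values belong to genes with no count in 1 region, whose fitted size is not a measure.

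The difference between the genotypes was then tested as an interaction, Head minus Tail in Fuz KO less Head minus Tail in WT. No gene passed in either direction in edgeR, where 224 genes with a positive difference (1.05% of those tested) and 228 with a negative one (1.07%) had an unadjusted p under 0.05, and none passed in DESeq2, where 526 had an unadjusted p under 0.05. The contrast also sets Fuz KO libraries with Y-linked transcripts against WT libraries almost without them, so sex and genotype cannot be told apart in it. Without Head Fuz KO 2 there were 4 genes with a positive and 15 with a negative difference, and without the filter on low counts 35 and 35.

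Sulf1, Foxl1 and Aldh1a1 had the lowest unadjusted p among list members with a negative difference, and Dbh, Foxa3 and Hoxb5 among those with a positive one. Sulf1, a sulfatase of the cell surface that acts on Wnt and Hedgehog signals, was at 106 and 109 CPM in Head Fuz KO and 100.4 and 76.4 CPM in Tail Fuz KO, against 203 and 200.3 CPM in Head WT and 75.0 and 82.1 CPM in Tail WT. Its interaction was -1.08 ± 0.22 on the log2 scale (unadjusted p = 0.000303, adjusted p = 1.00). Foxl1 (ENSMUSG00000097084, chromosome 8), a forkhead gene of Hedgehog-responsive mesenchyme, was at 0.623 and 0.714 CPM in Head Fuz KO and 2.09 and 1.63 CPM in Tail Fuz KO, against 7.87 and 5.58 CPM in Head WT and 3.30 and 3.66 CPM in Tail WT. The order of the regions was opposite in the genotypes (interaction -2.42 ± 0.56, unadjusted p = 0.00089, adjusted p = 1.00). Shh had the same turn, with 27.1 and 31.5 CPM in Head WT and 13.45 and 19.3 CPM in Tail WT beside the Fuz KO values above (interaction -1.57 ± 0.45, unadjusted p = 0.00416, adjusted p = 1.00). The Shh interaction passed without Head Fuz KO 2 (-2.36 ± 0.36, adjusted p = 0.0361) and without the filter on low counts (-1.60 ± 0.30, adjusted p = 0.000129), and it kept its sign in every alternative, with adjusted p otherwise between 0.393 and 1.00. That of Foxl1 passed without the filter on low counts (adjusted p = 0.000233), and otherwise had an adjusted p between 0.07 and 1.00. Within Fuz KO alone Foxl1 was at an adjusted p of 0.059 between the regions, and it passed with the replicate block (0.00254), in DESeq2 (0.0117) and without the filter (0.000533). Aldh1a1, of the dorsal eye and midbrain, was at 0.312 and 1.09 CPM in Head Fuz KO and 0.309 and 0.938 CPM in Tail Fuz KO, against 16.6 and 15.5 CPM in Head WT and 0.527 and 1.07 CPM in Tail WT (interaction -4.14 ± 1.00, unadjusted p = 0.00122, adjusted p = 1.00).

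Gli1 had no regional difference beyond its error in WT (36.4 and 43.7 CPM in Head WT, 38.2 and 45.9 CPM in Tail WT, log2 -0.07 ± 0.18), and its interaction was -0.79 ± 0.26 (unadjusted p = 0.00919, adjusted p = 1.00). That of Ptch1 was -0.18 ± 0.36 (unadjusted p = 0.618, adjusted p = 1.00). On the positive side, Dbh, the enzyme that makes noradrenaline, was at 1.82 and 1.52 CPM in Head Fuz KO and 0 and 0.0494 CPM in Tail Fuz KO, against 0.852 and 1.10 CPM in Head WT and 0.287 and 1.72 CPM in Tail WT (unadjusted p = 0.000784, adjusted p = 1.00). Tail Fuz KO held 2 counts of it in all. Hoxb5 was at 0.260 and 0.119 CPM in Head Fuz KO and 18.4 and 13.2 CPM in Tail Fuz KO, against 0 and 0.0469 CPM in Head WT and 10.7 and 13.8 CPM in Tail WT (unadjusted p = 0.0126, adjusted p = 1.00), and its Head levels are a few counts in either genotype. Foxa3, a liver and gut forkhead factor, was under 1 CPM in all 8 libraries and had no count in Head WT (unadjusted p = 0.0112, adjusted p = 1.00). With the replicate number as a block 1 gene passed, Lox, a collagen cross-linking enzyme, which was chosen after its values were seen. It was at 4.05 and 2.81 CPM in Head Fuz KO and 4.85 and 1.93 CPM in Tail Fuz KO, against 11.6 and 16.1 CPM in Head WT and 1.68 and 1.51 CPM in Tail WT (interaction -3.10 ± 0.86 without the block, adjusted p = 1.00, and -2.99 ± 0.36 with it, adjusted p = 0.0408).

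Against embryos lacking Gpr161 as well as Fuz, the regional contrast of Fuz KO was set in the same way. Head against Tail within DKO called 875 genes higher in Head (4.11%) and 624 lower (2.93%), 1499 in all (7.04%), and the Hox genes gave 34 of 38 lower in Head there too. No gene passed the interaction between Fuz KO and DKO in edgeR, with 209 positive (0.982%) and 224 negative (1.05%) at an unadjusted p under 0.05. Of 23 FGF genes, a list chosen here after its values were seen, 10 were negative and 0 positive at that threshold. Within DKO 7 of them were higher and 1 lower in Head, against 1 and 3 in Fuz KO. That difference in counts was not tested. In the interaction DESeq2 called 1 gene, Celsr1, a core planar cell polarity cadherin, which was chosen after its values were seen. Celsr1 was at 75.7 and 67.8 CPM in Head Fuz KO and 79.9 and 70.1 CPM in Tail Fuz KO, against 81.8 and 77.8 CPM in Head DKO and 42.5 and 32.1 CPM in Tail DKO, so that Tail DKO stood below the other groups (interaction -1.16 ± 0.21 in edgeR, adjusted p = 1.00, and -1.17 ± 0.24 in DESeq2, adjusted p = 0.0321). With the replicate block 3 genes passed, all with a negative difference: Celsr1, Crym and Sall1 (adjusted p = 0.0162 for each). Without Head Fuz KO 2 there was 1, Wnt5a, also chosen after its values were seen.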

How the data were processed

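Poly-A RNA of the Head and Tail of mouse embryos was sequenced in 16 libraries, 2 for each of 8 groups, and libraries were grouped by their region and genotype labels. The authors deposited raw read counts per gene for 54838 gene identifiers, of which 54723 could be given a symbol. Per the submitters' processing notes, the tools were HTSeq, featureCounts 1.6.0, StringTie 2.0.4, Picard 2.20.4, STAR 2.7.1a, Trimmomatic and FastQC, with no role given. The strand setting is not given in the sources used here, so reads of overlapping and antisense genes cannot be told apart.

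From the counts, edgeR 4.0.16 in R 4.3.3 (limma 3.58.1) was run with TMM scaling, filterByExpr (21284 genes kept) and a robust quasi-likelihood fit over all 16 libraries. The fit had 8 degrees of freedom for the residual, and 0.257 as its common coefficient of biological variation. It was tested on simulated data. Contrasts were Head minus Tail in Fuz KO, in WT and in DKO, and the differences between these. Genes were called at a Benjamini-Hochberg adjusted p under 0.05. For a gene without counts in a region, a bound is given from a floor of 3 counts over the group, and for 1 to 3 counts a ratio with an exact 95% interval. DESeq2 1.42.0, RLE scaling, other filters, fewer libraries and a replicate block were tried as alternatives.

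The members and the 40 gene lists (735 symbols, 1 not found) were chosen with earlier results of these data known. Named genes were Fuz, Gpr161, Gli1, Ptch1, Shh and the Hox genes, the 12 largest called differences in each direction with at least 5 CPM and no overlap, and up to 6 called members of each list by adjusted p. A list with none called gave its largest difference, and the interactions the 3 list members of lowest p in each direction. Mnx1, Lox, Celsr1, Crym, Sall1 and the microRNA loci fall outside this rule and were chosen after their values were seen.

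Libraries of equal number in both regions of a genotype deviated together in Fuz KO and, by a small margin, in DKO. The correlation across genes of number 1 minus number 2 in Head with the same in Tail was 0.437 in Fuz KO and 0.282 in DKO. It was 0.133 in WT and 0.196 in Gpr161 KO. Between genotypes it was -0.0518 to 0.268, a range that holds the values of WT and Gpr161 KO. The replicate block took libraries of equal number as pairs in every genotype. This is an assumption, which these values do not bear out for WT and Gpr161 KO. Sequences are RefSeq's, by gene symbol or microRNA name, on GRCm38.p6.

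Some genes that the naming rule gives are not reported here.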

Additional observations from a re-analysis of the deposited data

Results flagged for a closer look

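Shh and Foxl1 were singled out because every Fuz KO library of Head was below every Fuz KO library of Tail, while every WT library of Head was above every WT library of Tail. The tests below use these same libraries, so they are no independent support for the choice. How many of all genes show this order is not given, so it cannot be called particular to these genes. The difference between the genotypes, Fuz KO minus WT, was -1.57 ± 0.45 on the log2 scale for Shh and -2.42 ± 0.56 for Foxl1. It was tested as an interaction in edgeR's quasi-likelihood test, with unadjusted p of 0.00416 for Shh and 0.00089 for Foxl1 and an adjusted p of 1.00 for both. Within Fuz KO, the regional difference was -0.73 ± 0.32 for Shh (adjusted p = 0.253) and -1.47 ± 0.42 for Foxl1 (adjusted p = 0.059). Within WT it was 0.84 ± 0.31 for Shh (adjusted p = 0.211) and 0.95 ± 0.38 for Foxl1 (adjusted p = 0.249).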

How the results depend on the processing

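The Fuz KO counts of genes higher and lower in Head moved with the fit. They were 1206 and 968 with no filter, 1206 and 865 with DESeq2, 42 and 65 with the Fuz KO libraries alone, and 353 and 340 without both Fuz KO 1 libraries. Leaving out each Fuz KO and WT library in turn gave 334 to 963 higher and 385 to 1238 lower, and a lone remaining library is then assumed to vary like the other groups. The WT counts were 967 and 721 with no filter, 821 and 592 with DESeq2, 1042 and 920 with the WT libraries alone, and 725 and 635 without both Fuz KO 1 libraries. Leaving out libraries gave 135 to 555 higher and 144 to 471 lower in WT. The interaction of Fuz KO with WT had 35 positive and 35 negative genes with no filter, and 0 to 4 and 0 to 15 leaving out libraries. That of Fuz KO with DKO had 14 and 16 with no filter, 1 negative with DESeq2, and 0 to 1 negative leaving out libraries.

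With the replicate block, which takes libraries of equal number as pairs, the counts were 1696 and 1398 in Fuz KO and 1100 and 907 in WT. The interactions then had 1 negative gene against WT and 3 against DKO. The block ended 6 of the 83 calls named here and gave 6 more, and changed no other named call within Fuz KO. The cause of these moves was not tested.

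Of 1721 named values under alternatives, 1553 kept direction and side of the threshold, 126 lost the call, 32 gained it and 10 changed sign, none of those called. Leaving out libraries, the regional difference of Fuz ranged from -0.27 to 0.64, of Gpr161 from -0.44 to 0.67, of Ptch1 from -0.45 to 0.19, of Hoxa2 from -0.82 to 0.27 and of Car9 from -1.61 to 2.24. Car9 was at -0.56 without both Fuz KO 1 libraries. The Ptch1 interaction ranged from -0.48 to 0.16. Of the 83 calls, 83 held with RLE scaling, no filter and DESeq2, 31 with the Fuz KO libraries alone and 63 without both Fuz KO 1 libraries. Depth limits genes with a few counts in a region, for which bounds or ratios are given.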
